A study of Homo sapiens with 8 samples.

Results

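The genes followed here belong to the NRF2 response and the aldo-keto reductase family, in H3122 cells with evolved resistance to ALK inhibitors. They are AKR1C1, AKR1C2, AKR1C3, AKR1B10, NQO1, GCLM, TXNRD1, SRXN1, HMOX1 and SLC7A11. All 10 were found among the 43869 genes of the deposited table, and 119 of its 126470 distinct H3K27ac peaks were paired with at least 1 of them, a pair being a gene and a peak no more than 20 kb apart. The list was selected on gene names with the RNA and peak values of these libraries already known, so their RNA and peak changes are given as a description and carry no test.

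H3122 is an ALK-positive lung adenocarcinoma cell line that carries an EML4-ALK fusion. Values were available for treatment-naive H3122 cells and for 3 lines grown from them under an ALK inhibitor, with 1 RNA-seq and 1 H3K27ac ChIP-seq library per line. The erCriz0 line had evolved in 0.5 µM crizotinib, the erAlec0 line in 2 µM alectinib and the erLor0 line in 2 µM lorlatinib, through a stepwise rise in dose. RNA was taken after a period without inhibitor, which the naive cells shared, and the ChIP-seq cells carry a vehicle (DMSO) label in every line. Each resistant line is a single evolved culture, and 1 further crizotinib line, 1 further lorlatinib line, a sample labelled Lor 2w and a pooled input were not analysed here. No library was repeated, so no difference below has a replicate check, and all 3 comparisons use the same naive library. Values are rlog values, a log2-scale level that shrinks differences at low counts, and a change is the resistant line minus naive. A change of 1 or more was called up and a change of -1 or less was called down, which is 2-fold either way. A gene was counted as expressed when it reached 25 reads on this scale, an rlog of 4.64, in at least 1 library, and 12701 genes and 8 of the 10 members did so. The markers examined for epithelium (EPCAM, KRT8, KRT18, KRT19 and CDH1) lay at rlog 11.4 to 15.2 in all 4 libraries, and the lung factor NKX2-1 at 8.67 to 9.18. Of the lung products, SFTPB (1.64 to 2.03) and NAPSA (3.54 to 4.23) stayed under the limit for expression. Of the blood markers PTPRC was listed at 0, CD3E was below 0 and CD68 lay at 1.47 to 1.69. Of the fibroblast pair, COL1A1 lay at 9.49 to 10.08 and DCN at 1.45 to 1.64. Of the endothelial pair, CDH5 rose by 1.68 in erAlec0 and 1.54 in erLor0, and PECAM1 was below 0 in all 4 libraries. The part of those transcripts in the changes below was not tested.

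NRF2, encoded by NFE2L2, is a transcription factor that KEAP1 holds back and marks for degradation until oxidants or electrophiles modify KEAP1. Released NRF2 pairs with small MAF proteins on antioxidant response elements and switches on genes for glutathione synthesis, thioredoxin reduction, quinone reduction and carbonyl reduction, while BACH1 occupies the same elements as a repressor. In lung cancer the pathway is best known for its constant activity in tumours that carry mutations in KEAP1 or NFE2L2, where AKR1C and AKR1B10 enzymes, NQO1 and SLC7A11 are abundant.

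The upstream sequences of the AKR1C genes are shown first, because near-identity of these genes bears on how their reads can be told apart. They cover the 250 bases before a RefSeq transcription start (GRCh38.p14), written 5′ to 3′ on the strand of the gene, and for AKR1C3 the start is that of its canonical transcript.
AKR1C1, chr10:4963165-4963414, plus strand: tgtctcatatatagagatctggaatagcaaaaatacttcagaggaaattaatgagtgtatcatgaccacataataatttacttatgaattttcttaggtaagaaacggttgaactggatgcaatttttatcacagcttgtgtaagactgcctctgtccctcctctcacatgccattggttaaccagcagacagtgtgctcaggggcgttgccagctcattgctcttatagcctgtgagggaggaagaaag
AKR1C2, chr10:5003858-5004107, minus strand: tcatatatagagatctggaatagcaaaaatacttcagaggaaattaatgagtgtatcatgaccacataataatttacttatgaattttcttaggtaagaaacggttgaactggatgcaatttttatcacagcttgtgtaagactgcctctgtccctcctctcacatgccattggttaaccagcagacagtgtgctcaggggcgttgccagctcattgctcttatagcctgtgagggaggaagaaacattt
AKR1C3, chr10:5094164-5094413, plus strand: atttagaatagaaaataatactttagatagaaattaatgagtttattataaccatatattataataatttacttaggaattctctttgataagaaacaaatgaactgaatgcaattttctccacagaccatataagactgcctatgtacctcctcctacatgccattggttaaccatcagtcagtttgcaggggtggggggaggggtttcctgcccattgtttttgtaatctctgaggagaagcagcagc
The AKR1C1 and AKR1C2 stretches were 96.46% identical, with 1 mismatched base in the aligned part. AKR1C3 was 69.92% identical to AKR1C1 and 70.94% to AKR1C2 upstream. Coding sequences were closer, at 98.05% between AKR1C1 and AKR1C2, 91.68% between AKR1C1 and AKR1C3, and 91.27% between AKR1C2 and AKR1C3. Of all 50-base windows of the canonical transcripts, 22.57% of AKR1C1, 47.28% of AKR1C2 and 18.65% of AKR1C3 occurred unchanged in another AKR1C gene, and of all 75-base windows 16.77%, 36.04% and 12.32%. The length of the RNA reads is not given in the sources used here. How RNA reads from such stretches were split among AKR1C1, AKR1C2 and AKR1C3 is uncertain, and the single-gene values below are those of the authors' counting.

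The next sequences are those that held the core of the antioxidant response element, TGACNNNGC, in the 250 upstream bases, with the match in capitals on whichever strand it lies. RefSeq promoters were matched for 7 of the 10 members, which have 9 promoters in all, and HMOX1, SLC7A11 and AKR1B10 are named only.
GCLM, chr1:93909431-93909680, minus strand: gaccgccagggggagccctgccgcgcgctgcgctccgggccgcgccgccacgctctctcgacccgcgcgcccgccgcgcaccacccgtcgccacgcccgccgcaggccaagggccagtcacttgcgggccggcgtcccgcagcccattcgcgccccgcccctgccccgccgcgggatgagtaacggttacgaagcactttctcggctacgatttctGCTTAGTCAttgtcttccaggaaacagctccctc
TXNRD1, chr12:104215529-104215778, plus strand: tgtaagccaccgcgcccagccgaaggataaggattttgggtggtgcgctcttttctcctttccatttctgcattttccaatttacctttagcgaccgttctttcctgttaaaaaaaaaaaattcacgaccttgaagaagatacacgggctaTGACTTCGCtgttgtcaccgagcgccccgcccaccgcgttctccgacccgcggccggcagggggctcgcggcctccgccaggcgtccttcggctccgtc
TXNRD1, chr12:104286782-104287031, plus strand: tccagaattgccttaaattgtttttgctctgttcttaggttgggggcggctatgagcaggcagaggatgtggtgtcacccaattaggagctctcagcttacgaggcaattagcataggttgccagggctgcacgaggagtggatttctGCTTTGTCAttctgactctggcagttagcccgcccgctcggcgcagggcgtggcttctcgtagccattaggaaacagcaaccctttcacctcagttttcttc
Both strands were searched, and 3 of the 9 promoters, belonging to 2 genes, held the core, against 10.9% of 35116 promoters. The GCLM match reads TGACTAAGC on the opposite strand. The TXNRD1 promoters read TGACTTCGC and, at the inner start, TGACAAAGC on the opposite strand. The form TGACTCAGC, which is 1 of those the core allows, was in none of the 9 and in 0.456% of all promoters. A match is a description of letters only. Sequence farther upstream was not searched, so the lack of a match here does not mean that a gene lacks the element.

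In RNA, the AKR1C genes were below naive in every resistant line. The AKR1C enzymes reduce ketosteroids, prostaglandins and other carbonyls with NADPH, and AKR1C3 also makes active androgens. AKR1C2 (ENSG00000151632.17, chr10:4987400-5018031) had an rlog of 7.92 (naive), 5.09 (erCriz0), 4.96 (erAlec0) and 6.93 (erLor0). Its change was -2.84 (erCriz0), -2.96 (erAlec0) and -0.99 (erLor0), or 7.15-fold, 7.80-fold and 1.99-fold lower. Naive was highest, erLor0 next, and the other pair lay close together, with AKR1C2 among the lowest 0.024% of expressed genes by change in erCriz0 and the lowest 0.055% in erAlec0.

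AKR1C3 (ENSG00000196139.14, chr10:5035354-5107686) had an rlog of 6.32 (naive), 5.26 (erCriz0), 4.46 (erAlec0) and 5.39 (erLor0), a change of -1.06, -1.86 and -0.93. AKR1C1 (ENSG00000187134.14, chr10:4963253-4983283) had 5.71, 4.62, 4.16 and 5.11 in the same order, a change of -1.09, -1.56 and -0.60. AKR1C1 in erCriz0 and erAlec0, and AKR1C3 in erAlec0, lay under the limit for expression of 4.64. Both genes counted as expressed through their other libraries. All 3 genes were lowest in erAlec0 and highest in naive. In erLor0 none passed the limit, and AKR1C2 missed it by the smallest margin at -0.99. AKR1B10, a retinal and lipid aldehyde reductase (ENSG00000198074.10, chr7:134527567-134541412), had 3.43, 3.23, 2.94 and 3.56, under the limit for expression throughout. It too was lowest in erAlec0, where its change was -0.49.

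NQO1 reduces quinones directly to hydroquinones, without a radical in between. NQO1 (ENSG00000181019.13, chr16:69706996-69726668) had an rlog of 11.74 (naive), 11.36 (erCriz0), 10.42 (erAlec0) and 11.06 (erLor0). The changes were -0.38, -1.32 and -0.68 in erCriz0, erAlec0 and erLor0, so NQO1 passed the limit in erAlec0 alone among these lines.

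The glutathione members went different ways. GCLM, the modifier subunit of glutamate-cysteine ligase (ENSG00000023909.10, chr1:93885199-93909456), had 9.32 (naive), 9.73 (erCriz0), 8.42 (erAlec0) and 8.94 (erLor0), a change of 0.41, -0.90 and -0.38. SLC7A11, the cystine transporter that feeds glutathione synthesis (ENSG00000151012.13, chr4:138164097-138242349), had 13.24, 14.43, 13.73 and 13.52, a change of 1.18, 0.48 and 0.27. SLC7A11 was thus the only expressed member called up in any line, 2.27-fold in erCriz0, and the only member above naive in all 3 lines.

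The remaining members belong to the thioredoxin and haem branches. TXNRD1, thioredoxin reductase (ENSG00000198431.16, chr12:104215779-104350307), had an rlog of 12.70 (naive), 12.84 (erCriz0), 11.78 (erAlec0) and 12.38 (erLor0), a change of 0.14, -0.91 and -0.32. The pseudogene RPL18AP3 lies inside TXNRD1 on the same strand and had 10.24, 9.90, 10.58 and 10.33, and EID3, also inside it, had 5.20, 4.96, 4.44 and 4.74. HMOX1, haem oxygenase (ENSG00000100292.17, chr22:35380361-35394207), had 5.93, 6.06, 5.81 and 6.25, a change of 0.13, -0.12 and 0.32. SRXN1, which restores over-oxidised peroxiredoxins (ENSG00000271303.1, chr20:646615-653370), had 4.47, 4.41, 4.34 and 4.63, just under the limit for expression. HMOX1 and SRXN1 stayed within 0.44 from their lowest to their highest library. Among other overlapping genes, the antisense transcript SLC7A11-AS1 lay at 2.60, 3.23, 2.81 and 2.68.

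**Figure D1:**
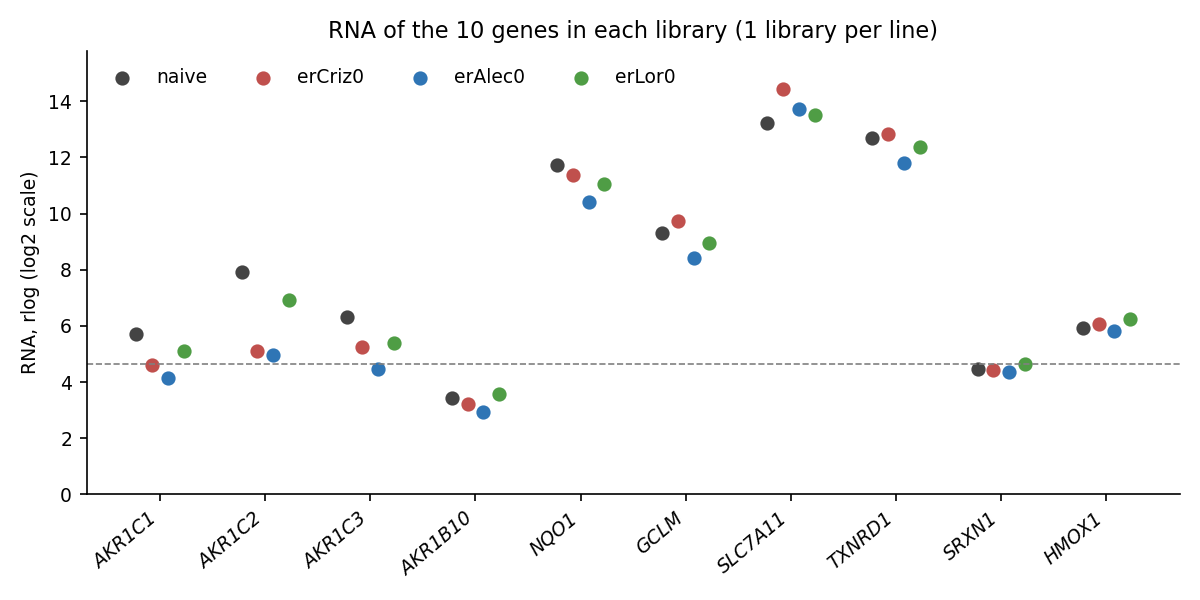
RNA level of each of the 10 genes (rlog, log2 scale) in the naive, erCriz0, erAlec0 and erLor0 libraries, with 1 point per library and no error bars because no library was repeated; the dashed line marks the limit for expression, 4.64. The naive point is the highest of the 4 for AKR1C1, AKR1C2, AKR1C3 and NQO1, and the lowest of the 4 for SLC7A11.

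Of the 8 expressed members, 1 was up and 3 were down in erCriz0, where 2.65% of all expressed genes were up and 1.65% were down. In erAlec0 0 were up and 4 were down, where 2.46% were up and 2.07% were down. In erLor0 0 were up and 0 were down, where 1.10% were up and 0.740% were down. Since the members were picked with these values known, nothing is read from their shares. The median change over the 8 was -0.125 (erCriz0), -1.12 (erAlec0) and -0.49 (erLor0), beside -0.017, 0.002 and -0.004 over all expressed genes. Without the AKR1C genes the median of the other 5 was 0.14, -0.90 and -0.32.

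Of 53 other pathway genes reported here, 44 were expressed. In erAlec0 1 (2.27%) was up and 1 (2.27%) was down, near the 2.46% and 2.07% of all expressed genes. In erCriz0 and erLor0 0 passed either limit, where 2.65% and 1.10% of all expressed genes were up and 1.65% and 0.740% were down. Medians over the 44 were -0.17 (erCriz0), -0.046 (erAlec0) and 0.071 (erLor0). NFE2L2 RNA itself lay at 11.63 (naive), 11.57 (erCriz0), 11.61 (erAlec0) and 11.48 (erLor0), and KEAP1 at 8.40, 8.47, 8.28 and 8.10. BACH1, the repressor, lay at 9.01, 9.96, 9.95 and 9.30, a change of 0.95 in erCriz0 and 0.94 in erAlec0, both just short of the limit. MAFK, a small MAF partner, was the gene called up in erAlec0, from 9.01 to 10.05. GPX2, a glutathione peroxidase, was the gene called down there, from 5.50 to 4.35, and lay at 4.56 in erCriz0 and 4.97 in erLor0. Its erAlec0 and erCriz0 levels lay under the limit for expression.

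Among the other aldo-keto reductases, none of the 5 expressed genes passed the limit in any line. AKR7A3, an aflatoxin aldehyde reductase, came nearest, with 5.48 (naive), 6.35 (erCriz0), 4.75 (erAlec0) and 5.41 (erLor0). AKR1E2 lay at 5.55, 5.23, 5.05 and 5.09, and AKR7A2 at 7.78, 7.47, 7.48 and 7.55. AKR1A1 lay at 9.50 to 9.72 and AKR1B1, aldose reductase, at 6.86 to 7.15. AKR1D1 and AKR1B15 were below the limit for expression, AKR1C4 was listed at 0, and AKR1C8 was matched to no row.

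**Figure D2:**
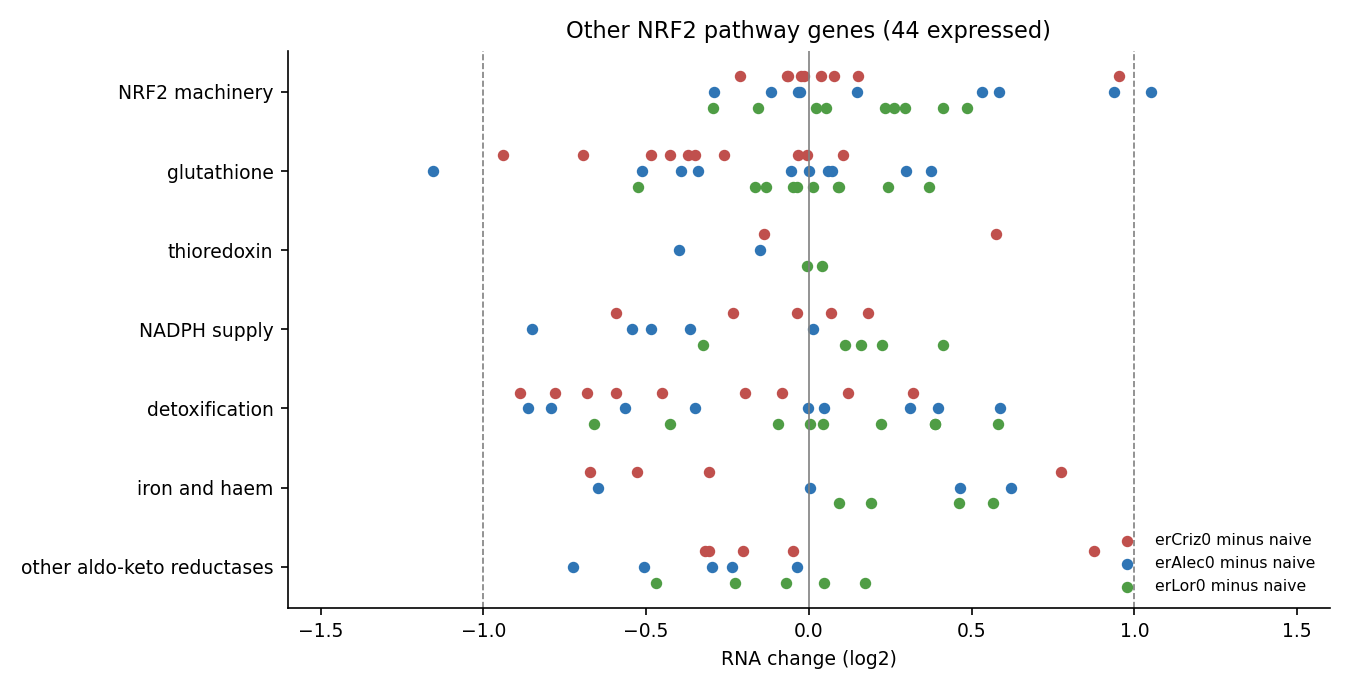
RNA change (log2, resistant line minus naive) of the 44 expressed genes of the NRF2 pathway list reported here, outside the 10 members, by role and by line, with 1 point per gene and dashed lines at 1 and -1. Only the erAlec0 points of GPX2 and MAFK lie past a dashed line.

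The 5 expressed genes whose RNA changes over the 3 lines lay nearest the AKR1C median (-1.09, -1.86 and -0.93) were RRM2, PCNA, LIG1, SLFN13 and E2F2. Their distances were 0.206, 0.261, 0.326, 0.330 and 0.346 in log2 units, over 3 changes that share the naive library. RRM2, a ribonucleotide reductase subunit, changed by -1.001, -1.69 and -0.85, and PCNA, the replication clamp, by -0.98, -1.81 and -1.16. AKR1C2 itself changed by -2.84, -2.96 and -0.99, so the median does not describe its fall in erCriz0 and erAlec0. Nearness to the median is a description of these 4 libraries only.

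H3K27ac, a histone mark found at active promoters and enhancers, lay above naive at the AKR1C genes in erAlec0 while their RNA lay below it. Their 27 distinct peaks, of which 8 were paired with more than 1 of the 3 genes, were all higher in erAlec0, the line in which their RNA was lowest. In erAlec0 all 27 were above naive and 18 were called up, where 14.1% of all peaks were up, with a median change of 1.23 and a range of 0.58 to 2.37. In erLor0 24 of 27 were above naive and 6 were up, where 7.45% of all peaks were, with a median of 0.45. In erCriz0 8 were above naive, none was up or down, and the median was -0.26. The 94 further peaks lying inside 1 Mb of the 3 genes showed medians of -0.12 (erCriz0), 0.17 (erAlec0) and 0.47 (erLor0). The AKR1C peaks thus exceeded their surroundings by 1.05 in erAlec0 and differed from them by -0.02 in erLor0 and -0.15 in erCriz0. The erLor0 difference was 0.56 with a 2 Mb window and 0.40 with a 5 Mb window.

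The strongest AKR1C peak in naive, at chr10:5007270-5012400, had an rlog of 7.13 (naive), 6.67 (erCriz0), 8.79 (erAlec0) and 8.50 (erLor0). It overlaps an exon of the annotated AKR1C2 span and lies 3413 bp upstream of the canonical AKR1C2 start. The peak at chr10:5018639-5022448, upstream of the annotated AKR1C2 span, had 5.56, 4.72, 7.48 and 5.93. The peak at chr10:4955684-4958684, upstream of AKR1C1, had 5.33, 5.24, 6.98 and 6.45. In all 3 peaks erAlec0 was highest and erCriz0 lowest. The largest rise over all member peaks in erAlec0 was at an intronic peak of the annotated AKR1C3 span, chr10:5040115-5040799, with 2.57, 2.44, 4.94 and 3.56. The largest in erLor0 was at another, chr10:5053067-5054242, with 4.11, 4.15, 6.01 and 5.52. Both lie upstream of the start of the canonical AKR1C3 transcript, chr10:5094414. Of the 27 peaks, 14 reached 15 reads on this scale (rlog 3.91) in at least 1 library, and of those 12 were up in erAlec0, with a median of 1.69. A peak could enter this set through its erAlec0 level alone, as chr10:5040115-5040799 did. The set therefore favours rises in erAlec0 and is no separate support for them.

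No peak overlapped the canonical starts of AKR1C1, AKR1C2 and AKR1B10, where the nearest peaks lay 3889, 3413 and 4192 bp away. AKR1C2 also has other annotated transcript starts, and peaks lay within 1 kb of some of them. The peak at chr10:5018080-5018542 lay 49 bp from the start of the annotated AKR1C2 span. Its changes were -0.48 (erCriz0), 0.72 (erAlec0) and -0.15 (erLor0). The peak at chr10:5018639-5022448, given above, lay 608 bp from that start. The methods state a limit to uniquely mapped ChIP-seq reads for the binned signal, and do not repeat it for the peak counts used here. The part of the near-identical upstream sequences of AKR1C1 and AKR1C2 in the gaps at their canonical starts was not tested. The canonical start of AKR1C3 was covered by a peak, chr10:5094412-5094814, at 3.96 (naive), 4.11 (erCriz0), 4.82 (erAlec0) and 4.27 (erLor0). The single AKR1B10 peak, chr7:134531759-134532290, had 3.73, 3.44, 4.56 and 4.11, highest in erAlec0 as well.

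SLC7A11 showed the opposite arrangement in erAlec0 and erLor0, with RNA above naive and H3K27ac below it. All 27 of its peaks were below naive in erAlec0 and in erLor0, with medians of -1.24 and -1.16, and 21 and 18 of them were called down, where 9.41% and 8.82% of all peaks were. In erCriz0, where its RNA was highest, 23 were below naive, 2 (7.41%) were down, near the 5.94% of all peaks, and the median was -0.41. Further peaks inside 1 Mb, 89 in all, showed medians of -0.14 (erCriz0), -0.42 (erAlec0) and -0.41 (erLor0). The largest falls were at an exonic peak, chr4:138183044-138187714, with 7.93 (naive), 7.38 (erCriz0), 5.88 (erAlec0) and 5.98 (erLor0), and at an upstream peak, chr4:138260850-138262825, with 6.63, 5.64, 4.84 and 4.67. The broadest peak, 13558 bp at chr4:138197956-138211513 in an intron, had 11.19, 11.48, 10.12 and 10.38. The peak over the transcription start, chr4:138240082-138244064, had 9.16, 9.51, 8.89 and 9.02, and its fall of 0.27 in erAlec0 and 0.14 in erLor0 was the smallest of the 27 in each. In erCriz0 4 peaks lay above naive, the broadest peak and the start peak among them.

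**Figure D3:**
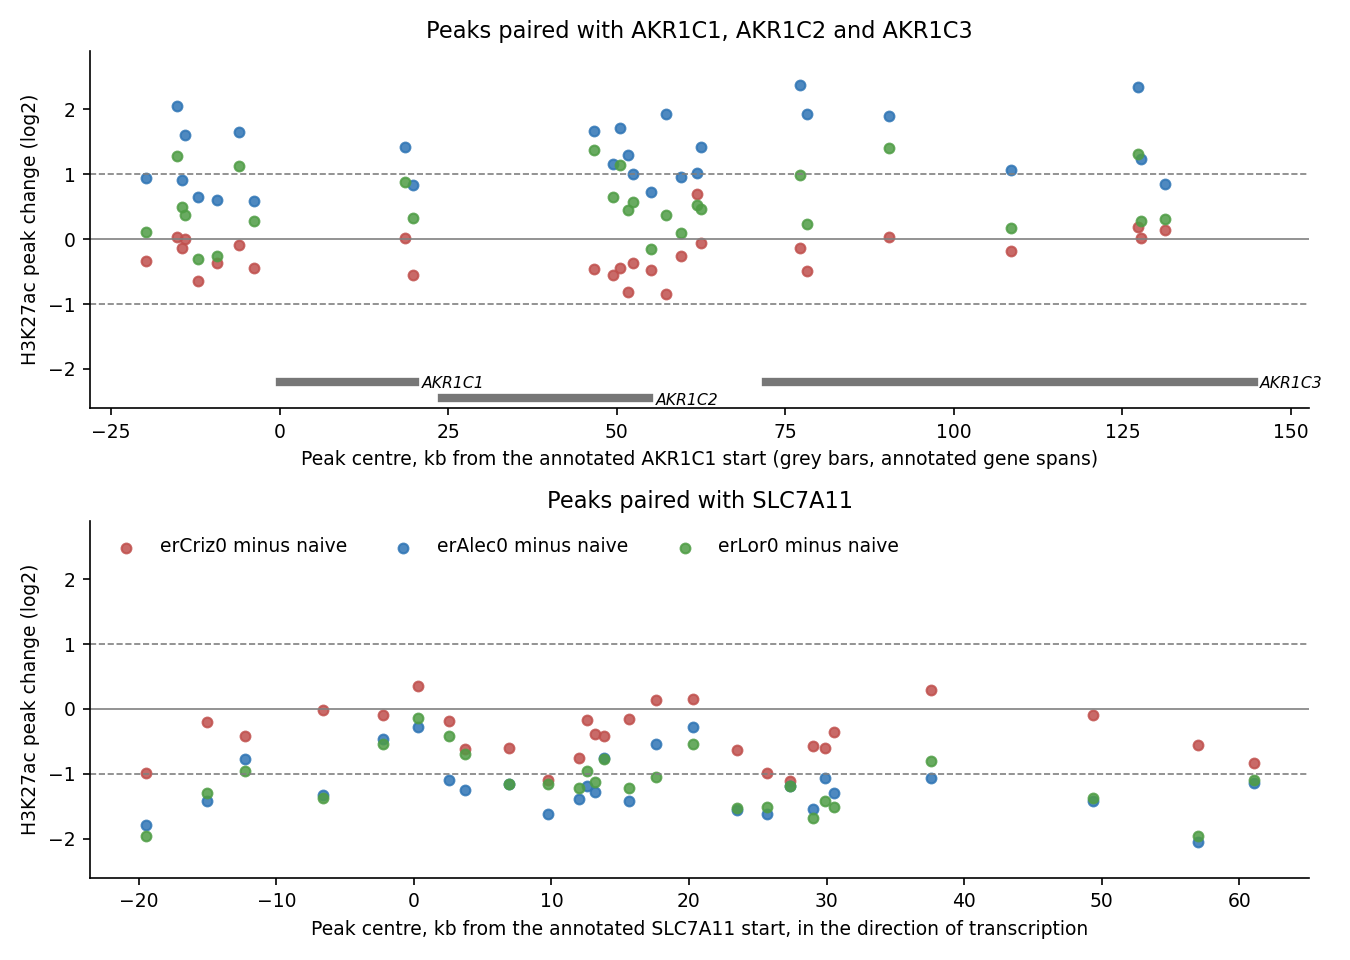
H3K27ac peak change (log2, resistant line minus naive) against the position of the peak centre in kb, for the 27 peaks paired with AKR1C1, AKR1C2 or AKR1C3 (top, from the annotated AKR1C1 start, with gene spans as grey bars) and the 27 paired with SLC7A11 (bottom, from its start), with 1 point per peak and line and dashed lines at 1 and -1. All erAlec0 points lie above 0 in the top panel, and all erAlec0 and erLor0 points lie below 0 in the bottom panel.

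At the canonical starts of the other members H3K27ac stayed within the limit. The GCLM start peak, chr1:93908454-93909609, had 5.96 (naive), 6.65 (erCriz0), 6.91 (erAlec0) and 6.78 (erLor0), the largest rise of any member peak in erCriz0 (0.70), although GCLM RNA was below naive in erAlec0 and erLor0. That peak was paired with 9 genes. The NQO1 start peak, chr16:69723395-69728315, had 8.90, 9.31, 9.38 and 8.98, so it was highest in the line where NQO1 RNA was lowest. The HMOX1 start peak, chr22:35381019-35381792, had 5.57, 6.14, 5.88 and 6.27, the SRXN1 start peak, chr20:651920-654087, had 7.28, 7.42, 7.63 and 7.34, and the TXNRD1 start peak, chr12:104215550-104216432, had 5.37, 5.37, 5.74 and 5.92. None of these 5 start peaks passed the limit in any line, and all were at or above naive in each. The inner TXNRD1 start lay under the strongest TXNRD1 peak, chr12:104274721-104290694, with 11.87, 12.06, 11.70 and 11.58. That peak was above naive in erCriz0 and below it in erAlec0 and erLor0.

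Beyond the starts, all 11 HMOX1 peaks were above naive in erAlec0, by a median of 0.84, while 135 further peaks inside 1 Mb showed -0.18 at the median and HMOX1 RNA was 0.12 below naive. The median over all peaks was 0.003 in erAlec0. None of the 11 was called up there, and each was also paired with at least 1 other gene. The 9 NQO1 peaks had medians of -0.10, 0.41 and 0.08 in erCriz0, erAlec0 and erLor0. The 36 TXNRD1 peaks had medians of -0.25, -0.02 and -0.28, with 5 (13.9%) down in erCriz0, 1 up and 1 down (2.78% each) in erAlec0, and 5 (13.9%) down in erLor0. Over all peaks 5.94% were down in erCriz0, 14.1% up and 9.41% down in erAlec0, and 8.82% down in erLor0. The largest fall over all member peaks in erCriz0 was at a TXNRD1 intron, chr12:104269921-104270231, with 3.19 (naive), 1.81 (erCriz0), 2.23 (erAlec0) and 1.93 (erLor0). The 4 SRXN1 peaks had medians of -0.55, -0.62 and -0.59, and the 4 GCLM peaks 0.08, -0.08 and 0.27.

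Over all 119 member peaks, 0 were up and 7 (5.88%) were down in erCriz0, beside 7.00% up and 5.94% down over all peaks. In erAlec0 19 (15.97%) were up and 23 (19.3%) were down, beside 14.1% and 9.41%. In erLor0 6 (5.04%) were up and 23 (19.3%) were down, beside 7.45% and 8.82%. Of the rises in erAlec0, 18 were AKR1C peaks and 1 a TXNRD1 peak. Of the falls there, 21 were SLC7A11 peaks, 1 a TXNRD1 peak and 1 an SRXN1 peak. Peaks paired with 1 gene share its surroundings and are not replicates of each other.

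**Figure D4:**
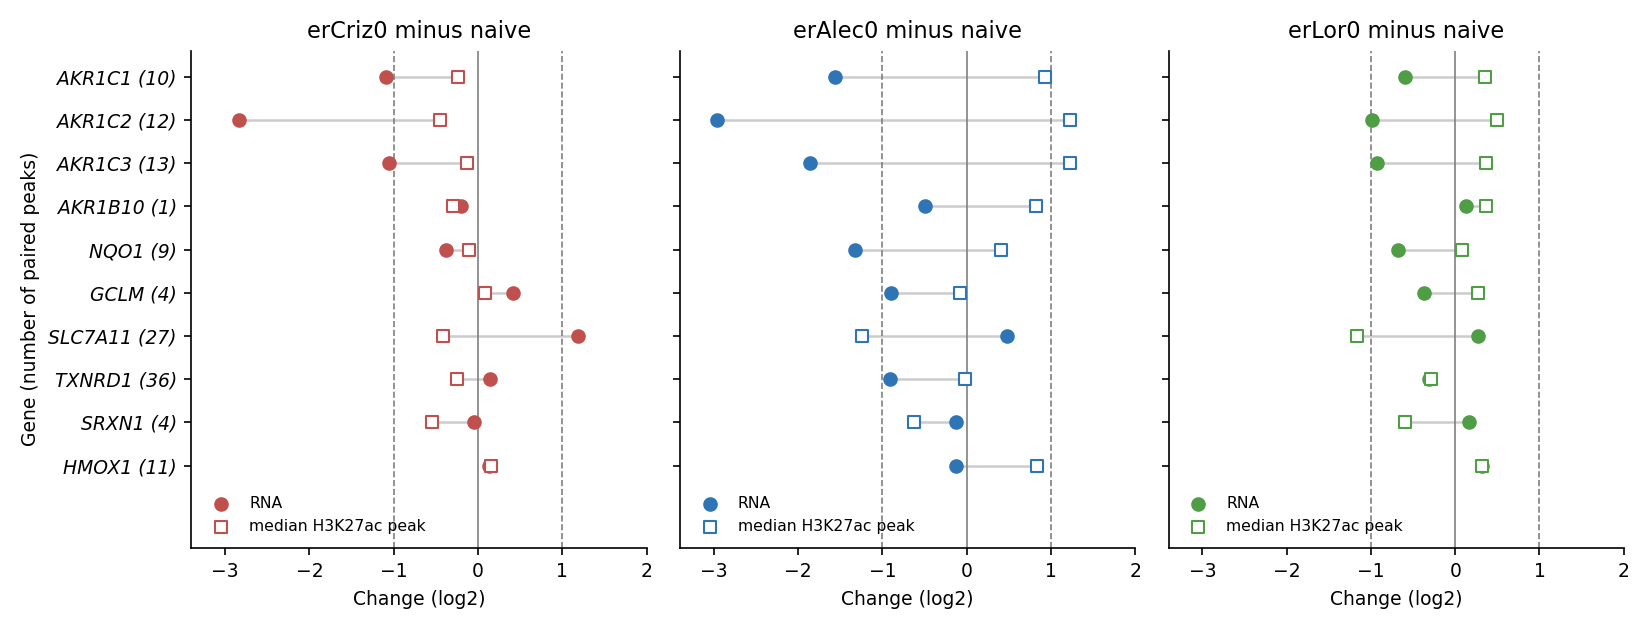
RNA change (filled circle) and median change of paired H3K27ac peaks (open square) for each member (number of paired peaks in brackets), on a log2 scale as resistant line minus naive, with 1 panel per line and dashed lines at 1 and -1. In erAlec0 the AKR1C genes have RNA at -1.56 to -2.96 and peaks at 0.93 to 1.23, and SLC7A11 has RNA at 0.48 and peaks at -1.24.

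Pairs of opposite change were also counted over the 8758 expressed genes with 5 or more peaks, a count devised after the AKR1C and SLC7A11 values had been seen. In erAlec0, 163 of these genes were down in RNA, and for 9 of them (5.52%) the median peak was up by 1 or more, AKR1C2 and AKR1C3 among the 9. Of all 8758 genes 4.68% had such a median peak, so the share among genes down in RNA was near the background. The median peak was up for 4 of 168 genes down in RNA (2.38%) in erCriz0, beside 1.11% of all, and for 0 of 64 in erLor0, beside 1.51%. It was down for 8 of the 163 in erAlec0, beside 153 of all 8758 genes. In erCriz0 it was down for 4 of the 168, beside 78 of all, and in erLor0 for 6 of the 64, beside 127 of all. In each line a fall in the median peak was thus more frequent among genes down in RNA than among all 8758, on small counts. The arrangement at SLC7A11, a fall in peaks with RNA at or above naive, was counted over the same 8758 genes but differently. That count starts from genes whose median peak was down, and it sets no 2-fold limit on RNA. Of 153 genes whose median peak was down in erAlec0, 81 (52.9%) had RNA at or above naive, beside 53.2% of all 8758 genes. The count was 43 of 78 (55.1%) in erCriz0, beside 45.1%, and 44 of 127 (34.6%) in erLor0, beside 52.8%.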

How the data were processed

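H3122 RNA-seq and H3K27ac ChIP-seq libraries of naive, erCriz0, erAlec0 and erLor0 cells were analysed, 1 of each per line; 4 of 8 samples had no column and were not used. Per the methods, the authors used HISAT2 and then HTSeq-count for RNA, and aligned ChIP reads with BWA to hg38. Duplicates were marked, and peaks were called with MACS2, merged over the 4 libraries and counted with featureCounts. A limit to uniquely mapped reads is stated for the binned ChIP signal and is not repeated for the peak counts. The authors normalized both with the rlog function of DESeq2, and the deposited values are these log2-scale levels; raw counts and depth are unknown here. The authors' r, p and adjusted p columns, which correlate peaks with genes, were not used.

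Symbols came from GENCODE release 44 (43669 of 43869 identifiers matched). Changes, medians and counts past the limit were computed with Python 3.11.15, pandas 2.3.3 and numpy 2.4.6, checked on simulated data, with no test. The members and lists were chosen with earlier results of these data known. From the pathway list 1 gene is not reported here and was left out of its counts and medians. Genes named were the members, NFE2L2, KEAP1, BACH1, other aldo-keto reductases, pathway genes past the limit, the 5 nearest to the AKR1C median and overlapping genes. Peaks named were those over or nearest each canonical start, and the largest rise and fall per line. Other AKR1C, SLC7A11, AKR1B10 and TXNRD1 peaks were picked after their values were seen. Alternatives changed the limit, scaling, filters, peak distance and region.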

Additional observations from a re-analysis of the deposited data

How the results depend on the processing

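With 1 library per line there was no spread to judge against, so a median was taken as moved at a shift of 0.1 and a count at 1.5 times; 75 of 123 alternative values stayed within that. No paired analysis was possible because the result comes from no test and each group has 1 library. At a 4-fold limit 0 members were up and 1 was down in erCriz0 RNA and 1 was down in erAlec0 RNA, and at a 1.5-fold limit 4 were down in erLor0. At 1.5-fold the member peaks numbered 2 up and 22 down for erCriz0, 43 up and 36 down for erAlec0, and 15 up and 37 down for erLor0. At 4-fold 0 were down for erCriz0, 3 were up and 1 was down for erAlec0, and 0 passed either way for erLor0. Among the 36 peaks paired with 1 gene, 2 were down in erCriz0, 4 were up and 15 down in erAlec0, and 1 was up and 14 down in erLor0, with median changes of -0.65 in erAlec0 and -0.62 in erLor0. Those 36 belong to SLC7A11, TXNRD1 and AKR1C3 only, with SLC7A11 peaks the most numerous. Under a filter on low peaks 3 member peaks were down in erCriz0. Shares over all genes or peaks were not computed under these alternatives, so nothing is read from the counts.

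Median RNA change of the members after quantile normalization was -0.23 in erCriz0 and -1.23 in erAlec0. With no filter on low genes it was -0.91 in erAlec0 and -0.34 in erLor0, and without the AKR1C genes 0.14, -0.90 and -0.32 in erCriz0, erAlec0 and erLor0. Median peak change was -0.018 in erAlec0 for peaks within 5 kb, and -0.029 in erLor0 after centring. Other weightings were chosen after seeing the data. With 1 value per gene it was 0.62 in erAlec0 and 0.29 in erLor0, without SLC7A11 0.49 and 0.10, and without the AKR1C genes -0.25 and -0.34, so the sign of the pooled peak median turned with its members.

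The AKR1C peaks minus their region in erAlec0 came to 1.17 with a 5 Mb window, 1.24 with a 2 Mb window and 1.45 with the filter on low peaks. In erLor0 the value was 0.40, 0.56 and 0.17 under these settings and 0.16 after quantile normalization. In erCriz0 it was 0.00 with a 2 Mb window, -0.039 with the filter and -0.016 after quantile normalization. The filter keeps a peak that is high in any 1 library, so it favours peaks that rose in erAlec0. The cause of the AKR1C differences was not tested. Read depth is not known here, so low levels have no known precision. That holds for AKR1B10, SRXN1 and the smallest peaks above all, and also for AKR1C1, AKR1C3 and GPX2 in erAlec0.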
